A study of Mus musculus with 2 samples.

Results

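The TNF superfamily, the Toll-like receptors and the NF-kB proteins that act below them were examined in mouse renal collecting duct cells, the cells of the last tubule segment, of WT mice and of mice with an induced deletion of Gata2, which encodes a zinc-finger transcription factor. The genes were taken by name from the array: those whose names begin with Tnf, Tnfsf, Tnfrsf, Tnfaip, Tlr, Nfkb or Traf, together with Rel, Rela, Relb, Birc2, Birc3, Myd88, Ikbkb, Ikbkg and Chuk. This gave 75 genes with 101 probes, of 19087 named genes and 41174 probes in all. The rule used names only, but it was set with earlier results of these data known. Of the 75 genes, 52 were well above background on both arrays, 5 on the WT array only, 0 on the CKO array only and 18 on neither. A difference, or a bound on it, could be given for 56 of the 75 genes. Of all 19087 named genes, 13951 were well above background on at least 1 array. Their split between the arrays was not counted. Fewer spots were well above background on the CKO array (62.4%) than on the WT array (64.1%).

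The study has 1 one-colour array of WT and 1 of Gata2 CKO cells, from mice of mixed sex and 8 weeks of age. The CKO genotype is Gata2flox/-::Pax8-rtTA::Tet-Cre, which is 1 floxed and 1 null Gata2 allele with a Pax8 promoter that drives a doxycycline-dependent activator in renal tubules and a Cre recombinase that responds to it. The WT label gives no transgene. Doxycycline was started at 4 weeks of age and continued for 4 weeks, in wording that does not separate the genotypes, and whether WT mice drank it is not stated. Cells were captured with DBA lectin, which binds collecting duct epithelium, and magnetic beads. The design gives 3 mice per genotype, the array names describe mixtures, and no label says outright that RNA was pooled. With 1 array per genotype there was no replicate, no test was possible, and every difference below has no replicate check. The null allele is carried by every cell of a CKO mouse, so its effect and that of the tubule deletion cannot be told apart.

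Tumour necrosis factor and its relatives are signals between cells that bind receptors of the same family, and Toll-like receptors bind parts of microbes and damaged cells. Both kinds of receptor use adaptors (Myd88, the Traf proteins) to reach the IKK kinase. IKK phosphorylates the IkB proteins that hold NF-kB dimers in the cytoplasm, the IkB proteins are then ubiquitinated and degraded, and the freed dimers enter the nucleus and switch on genes. Those genes include inhibitors of the pathway itself, among them Nfkbia, Nfkbie and Tnfaip3, and the subunit genes Nfkb2 and Relb. In the kidney the pathway is best known from inflammation and injury, in tubule cells and in resident macrophages alike.

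The promoters of 4 inhibitor and subunit genes are shown first, because 3 of these genes had CKO signals at least 1.5-fold below WT while Nfkbia, a standard NF-kB target, differed by less than its spot error. The windows hold the 250 bases before the gene start, taken from RefSeq (GRCm38.p6), 5′ to 3′ on the strand of the gene, and the capitals mark matches to the NF-kB consensus motif, searched on both strands with overlapping matches counted as 1 site. Nfkbie lies at chr17:45555450-45555699 (plus strand), Nfkb2 at chr19:46304487-46304736 (plus strand), Tnfaip3 at chr10:19015411-19015660 (minus strand) and Nfkbia at chr12:55492648-55492897 (minus strand).
Nfkbie: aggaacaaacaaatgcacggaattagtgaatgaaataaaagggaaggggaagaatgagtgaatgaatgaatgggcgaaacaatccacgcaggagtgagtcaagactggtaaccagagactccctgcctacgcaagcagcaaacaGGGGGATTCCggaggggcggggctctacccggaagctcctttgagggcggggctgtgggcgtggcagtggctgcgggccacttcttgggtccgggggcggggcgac
Nfkb2: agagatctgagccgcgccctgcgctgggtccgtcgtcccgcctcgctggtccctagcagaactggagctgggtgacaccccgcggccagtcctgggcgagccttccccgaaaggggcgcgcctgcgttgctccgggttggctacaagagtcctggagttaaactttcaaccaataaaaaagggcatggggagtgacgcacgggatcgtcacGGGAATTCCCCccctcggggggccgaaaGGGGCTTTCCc
Tnfaip3: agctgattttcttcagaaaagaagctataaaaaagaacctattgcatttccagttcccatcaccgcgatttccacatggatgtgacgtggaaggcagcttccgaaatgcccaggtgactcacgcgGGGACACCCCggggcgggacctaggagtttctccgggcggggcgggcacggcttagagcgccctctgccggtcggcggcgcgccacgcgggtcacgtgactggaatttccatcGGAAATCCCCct
Nfkbia: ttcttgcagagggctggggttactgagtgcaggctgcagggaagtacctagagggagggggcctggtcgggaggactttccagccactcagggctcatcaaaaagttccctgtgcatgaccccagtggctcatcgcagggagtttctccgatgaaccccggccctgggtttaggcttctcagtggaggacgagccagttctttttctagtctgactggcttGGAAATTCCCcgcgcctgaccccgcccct
The Nfkbie match began 106 bases before the start, the Nfkb2 matches 39 and 11, the Tnfaip3 matches 125 and 12, and the Nfkbia match 29. RefSeq gives further starts for Nfkb2, with matches 236 and 225 bases before them, and another for Tnfaip3 with none, and those windows are not shown. A match is a description of letters, not a site at which binding was measured.

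Probes are short oligonucleotides fixed to the array, and each signal is given relative to the 75th percentile signal of its own array, as a percent, so that the ratio of both arrays is the fold difference. The difference is CKO minus WT on the log2 scale, and the error after ± is the scanner's own error of the spots, joined from the WT and CKO arrays. It is an estimate of the scanner software, not a scatter measured between spots, and is near 0.20 for all bright probes. Variation between mice, purifications or labelling reactions is outside this error, and outside the spread of repeated spots of a probe. Probes differ in brightness for reasons of sequence, so levels are compared between arrays only, never between genes. In bulk RNA, fewer cells of a type and less RNA per cell cannot be told apart.

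Across all members the CKO array was lower in 39 genes and higher in 17, while 45.3% of all genes with a value were lower. The median difference of the members was −0.08 and that of all genes 0.03. At least 2-fold lower were 3 members (Tnfaip8l2, Nfkbie and Birc3), against 3.36% of all genes, and at least 2-fold higher were 0, against 1.23%. At least 1.5-fold lower were 11 members, against 7.3% of all genes, and at least 1.5-fold higher was 1 (Tnfrsf21), against 5.28%. Scaling on 8 spike-in transcripts in place of the 75th percentile moved every difference by −0.55, the median of all genes to −0.52 and that of the members to −0.63, so every direction below is relative to the other genes of the array. Normexp background correction is another way of removing background. Here it started from raw spot means, not from the processed signals used elsewhere. It also adds 50 to every signal, which narrows raw differences of dim probes. With it, 5 members were at least 1.5-fold lower (Birc3, Nfkbie, Relb, Tnfaip3 and Tnfaip8l2). Birc3, at −0.93, was no longer among those at least 2-fold lower, which left 2 at −1.03 (Nfkbie) and −1.74 (Tnfaip8l2). Under spike-in scaling 35 members were at least 1.5-fold lower and 15 at least 2-fold. Under that scaling the higher values of Tnfrsf21 and Tnfsf10 came to 0.21 and 0.01 and that of Tnfrsf19 turned to −0.11.

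**Figure D1:**
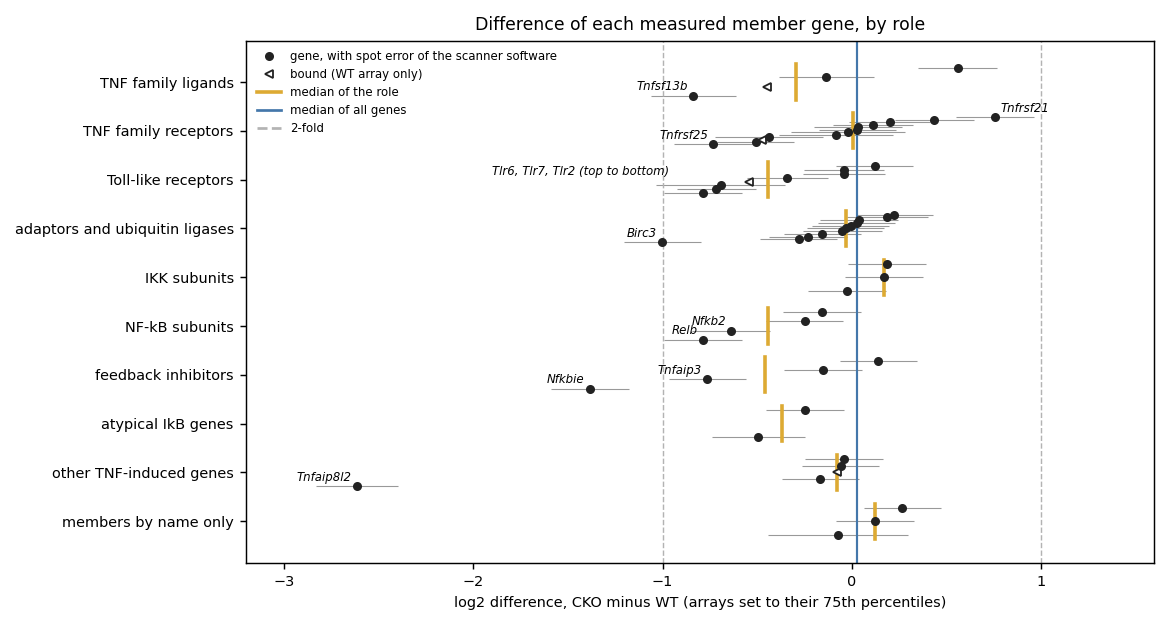
Difference of each measured member on the log2 scale (CKO minus WT, x axis), by role (y axis), as points with the spot error of the scanner software; open triangles are bounds from the WT array only, yellow bars are role medians, and the blue line is the median of all genes. The subunits, feedback inhibitors and Toll-like receptors have medians of −0.44, −0.46 and −0.44, while the receptors and adaptors lie at 0.00 and −0.03. With the mean over a gene's probes, not drawn, the receptor median was −0.16.

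Of 11 ligand genes on the array, 5 were measured and 4 had a value, with a median of −0.29. Tnfsf13b encodes BAFF, the survival factor of B cells, and its relative signal was 32.6% in WT and 18.2% in CKO, a difference of −0.84 ± 0.22 or 1.79-fold lower. Tnfsf10 encodes TRAIL, a ligand that can start cell death, and went the other way, with 29.4% in WT and 43.3% in CKO, a difference of 0.56 ± 0.21. Tnfsf9 (the ligand of 4-1BB) was at 12.6% and 11.5%, a difference of −0.13 within its spot error. Tnfsf12, which encodes TWEAK, was at 6.32% in WT and was too dim in CKO to stand well above background, which gives at least 1.37-fold lower. Of the 4 ligands with a value, 3 were lower and 1 was higher. The direction of the ligand median turned to 0.051 with normexp background correction, where Tnfsf13b was at −0.34, and to 0.24 without a filter on dim probes.

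Tnf itself was at the limit of detection. Its probe was printed 10 times, and 5 WT spots and 1 CKO spot were well above background. The relative signals ran from 2.68% to 6.90% with a median of 4.09% on the WT array, and from 1.21% to 5.77% with a median of 3.94% on the CKO array. The arrays overlapped over most of their range and no fold is given. The remaining ligand genes, Tnfsf4, Tnfsf8, Tnfsf11, Tnfsf14, Tnfsf15 and Tnfsf18, were not well above background on either array. A further probe, listed in the file under a clone name and now assigned to Tnfsfm13, was at 31.1% and 21.9% (−0.51) and does not meet the name rule.

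Of 20 receptor genes, 12 were measured, 6 lower and 6 higher, with a median of 0.00 on the probe of highest signal of each gene. With the mean over a gene's probes the receptor median came to −0.16. Tnfrsf1b is counted as higher, although its other probe was lower. Tnfrsf25 (DR3) was at 88.1% and 53.1%, a difference of −0.73 ± 0.21 or 1.66-fold lower, on the single one of its probes that was measured, and −0.45 with normexp. Tnfrsf12a is the TWEAK receptor and was at 335% and 236% (−0.51 ± 0.20). Tnfrsf11a (RANK) was at 13.5% and 9.95% (−0.44 ± 0.28), its other probe gave a bound of −0.92, and with normexp it came to 0.01. Tnfrsf22, a decoy receptor for TRAIL in mice, was measured on the WT array only, at 6.43%, which gives at least 1.39-fold lower.

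Tnfrsf21 (DR6) was the member with the highest value, at 112% in WT and 189% in CKO, 0.76 ± 0.20 or 1.69-fold higher. Its 3 probes gave 0.76, 0.79 and 0.80, the last a bound because that probe was too dim on the WT array. Tnfrsf19 (TROY) was at 35.6% and 48.2% (0.44 ± 0.21). The main TNF receptor, Tnfrsf1a, showed little difference: 9 unflagged spots ran from 432% to 472% on the WT array and 9 from 435% to 476% on the CKO array, with medians of 438% and 458%. The ranges overlapped almost entirely and the difference was 0.03. Tnfrsf13b, Tnfrsf10b, Tnfrsf18 and Tnfrsf4 differed by −0.08, −0.02, 0.03 and 0.11, each within its spot error, but the second measured probe of Tnfrsf10b gave −0.46 ± 0.34. The 8 receptor genes not well above background on either array were Tnfrsf8, Tnfrsf9, Tnfrsf11b, Tnfrsf13c, Tnfrsf14, Tnfrsf17, Tnfrsf23 and Tnfrsf26.

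Tnfrsf1b, the second TNF receptor, had no single value. A probe that crosses an exon junction, placed by the files on mm9 at chr4:144812866-144813439 (minus strand), gave 26.1% and 30.0%, a difference of 0.20. A probe further towards the 3′ end of the transcript, printed 10 times, ran from 10.2% to 12.4% with a median of 11.5% on the WT array and from 5.94% to 8.25% with a median of 6.81% on the CKO array. Those spots did not overlap, and the difference was −0.73. The probes of Tnfrsf1b disagreed by more than the 0.58 (1.5-fold) used to call a disagreement, in opposite directions.

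Toll-like receptors were mostly lower on the CKO array: 7 of the 8 measured, of 9 on the array, with a median of −0.44. Tlr2, the receptor for bacterial lipoproteins, was printed 10 times, with 10 unflagged spots on the WT array from 83.0% to 95.9% (median 89.1%) and 8 on the CKO array from 48.2% to 54.4% (median 53.2%). The spots did not overlap, and the difference was −0.79 ± 0.21 or 1.73-fold lower. Tlr6, a partner of Tlr2, was at 10.002% and 6.19% (−0.69 ± 0.34), and Tlr1, its other partner and neighbour at 28.3 kb on chromosome 5, was at 32.9% and 26.0% (−0.34 ± 0.21). Tlr7, a sensor of single-stranded RNA in endosomes, was at 59.6% and 36.3% (−0.72 ± 0.21). Tlr5, the flagellin receptor, was measured in WT alone, at 6.79%, and so at least 1.46-fold lower.

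The other 3 measured Toll-like receptors differed little. Tlr4, the lipopolysaccharide receptor, ran from 32.6% to 37.7% over 10 spots of the WT array (median 35.8%) and from 29.8% to 36.7% over 10 of the CKO array (median 34.7%), with overlapping ranges and a difference of −0.04. Tlr3, the sensor of double-stranded RNA, was at 24.2% and 23.5% (−0.04), and Tlr9, the sensor of bacterial DNA, at 332% and 361% (0.12 ± 0.20). Tlr8 was not well above background on either array. With normexp background correction the Toll-like receptor median came to −0.01, where Tlr6 was at −0.01, Tlr2 at −0.56 and Tlr7 at −0.51.

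**Figure D2:**
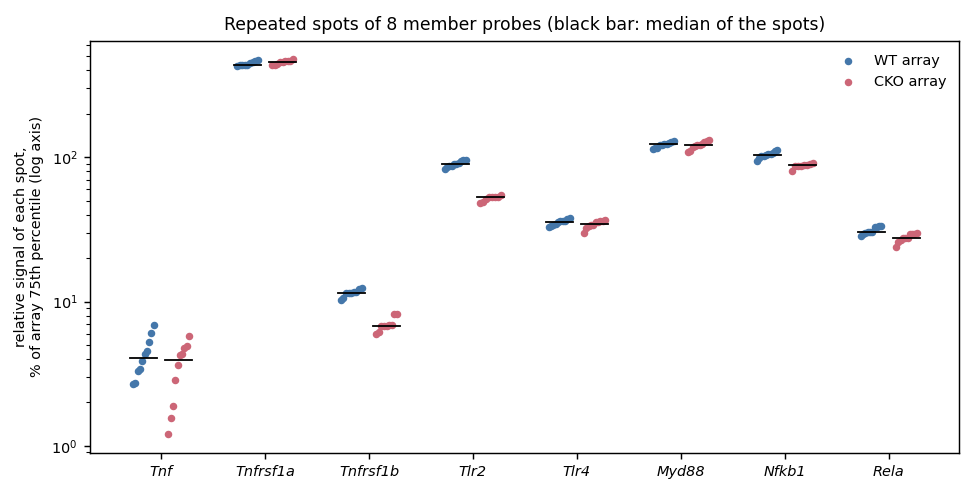
Relative signal of each unflagged spot (y axis, log scale, percent of the 75th percentile of the array) for the 8 member probes printed 10 times, on the WT array (blue) and the CKO array (red), with black bars at the medians; spots are drawn in order of signal. The spots of Tlr2 (83.0% to 95.9% against 48.2% to 54.4%), Tnfrsf1b and Nfkb1 do not overlap, while those of Tnf, Tnfrsf1a, Tlr4, Myd88 and Rela do.

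The adaptors and ubiquitin ligases stood close to all genes, with a median of −0.03 over 11 measured genes, 7 lower and 4 higher. Birc3 (cIAP2), a ubiquitin ligase of the TNF receptor complex, was the exception at 252% in WT and 126% in CKO, a difference of −1.001 ± 0.20 or 2.001-fold lower, which is right at the 2-fold limit. Its other probe, at 47.8% and 23.0%, gave −1.06. Birc2 (cIAP1), its neighbour at 33.8 kb on chromosome 9, was at 135% and 121% (−0.16 ± 0.20). Traf3 and Traf1 were at −0.28 and −0.23. Myd88, the adaptor of most Toll-like receptors, ran from 113% to 131% over 10 spots of the WT array (median 123%) and from 110% to 132% over 10 of the CKO array (median 121%), a difference of −0.01 with overlapping ranges. Traf6, Traf5, Traf2 and Traf7 lay between −0.05 and 0.04, and Traf3ip2 and Traf4 at 0.19 and 0.23.

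The 3 subunits of IKK had a median of 0.17. Chuk (IKK-alpha) was at 214% and 210% (−0.02 ± 0.20), Ikbkb (IKK-beta) at 124% and 140% (0.17 ± 0.20) and Ikbkg (NEMO) at 77.4% and 88.2% (0.19 ± 0.21). None of these exceeded its spot error, and the probes of Ikbkg gave −0.24, 0.17 and 0.19.

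The 4 measured NF-kB subunits were all lower on the CKO array, with a median of −0.44. Relb and Nfkb2, which encode the partners of the noncanonical dimer, differed most. Relb was at 159% and 92.4% (−0.79 ± 0.21, 1.72-fold lower) and Nfkb2 at 140% and 89.8% (−0.64 ± 0.21, 1.55-fold lower). Nfkb1, which encodes p50, was printed 10 times, with 10 unflagged spots of the WT array from 94.4% to 112% (median 104%) and 8 of the CKO array from 80.4% to 91.1% (median 88.1%). The spots did not overlap, at a difference of −0.25, but the other probes of Nfkb1 gave −0.12 and 0.01. Rela, which encodes p65, was at 363% and 326% (−0.16 ± 0.20), with the same −0.16 from its second probe. Rel was not well above background on either array.

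Among the 4 genes grouped as feedback inhibitors the median was −0.46, and the values ran from −1.38 to 0.14. The group includes Nfkbib, which is not among the inhibitors named above as genes switched on by NF-kB. Nfkbie (IkB-epsilon) was at 126% and 48.3%, a difference of −1.38 ± 0.21 or 2.61-fold lower, on its single probe. Tnfaip3 (A20, a ubiquitin-editing enzyme that shuts down TNF signalling) was at 173% and 102% (−0.76 ± 0.20). Nfkbia (IkB-alpha) was at 2593% and 2333% (−0.15 ± 0.20), and Nfkbib (IkB-beta) was at 214% and 236% (0.14 ± 0.20). The atypical IkB genes Nfkbid (17.4% and 12.3%, −0.49 ± 0.25) and Nfkbiz (239% and 201%, −0.25 ± 0.20) were both lower, but Nfkbid came to −0.07 with normexp.

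Tnfaip8l2 had the largest difference of any member. It encodes TIPE2, a protein of the Tnfaip8 family that is known from immune cells as a brake on receptor signalling. The role labelled other TNF-induced holds it by its name only, and induction by TNF was not measured. Its single probe was at 139% in WT and 22.7% in CKO, −2.61 ± 0.22 or 6.12-fold lower. The family member Tnfaip8 was at 411% and 366% (−0.17 ± 0.20), and Tnfaip8l1 gave a bound of −0.08. Tnfaip2 (896% and 861%) and Tnfaip1 (79.2% and 77.1%) differed by −0.06 and −0.04, and Tnfaip6 and Tnfaip8l3 were not well above background on either array. By name only came Traf3ip3 (−0.07), Nfkbil1 (0.12) and Traf3ip1, whose probes gave 0.27 and 0.94.

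Agreement between probes that measure the same gene gives 1 part of the precision of a difference. Such probes share the same 2 arrays, so variation between mice, purifications or labelling reactions is outside their spread. Over 5303 genes with several measured probes the SD of the difference between probes was 0.27 on the log2 scale, and 0.27 over the 12 members with several probes measured on both arrays, while repeated spots of 1 probe gave a median SD of 0.093. The differences of Tlr4, Tlr3, Myd88, Traf2, Rela and Nfkbia lay below that SD between probes. The 11 members at least 1.5-fold lower and Tnfrsf21 exceed it by the limit that picked them, so this is no check of them. Among these, only Birc3 and Tnfrsf21 had more than 1 probe with a value. Of 13 members with 2 or more probes with a value, 2 (Tnfrsf1b and Traf3ip1) had probes that disagreed by more than 0.58.

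**Figure D3:**
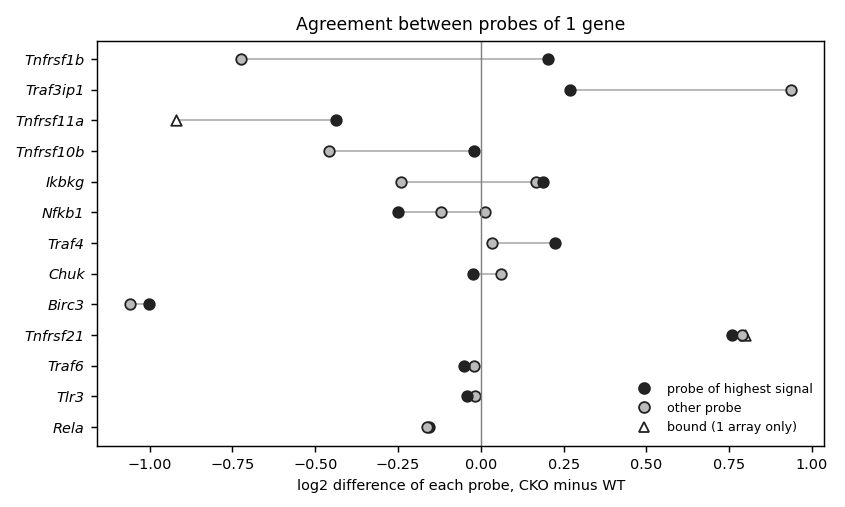
Difference (x axis, CKO minus WT, log2) of each probe of the 13 members with 2 or more probes with a value (y axis); black points are the probe of highest signal, grey points the other probes and triangles bounds. The probes of Birc3 (−1.001 and −1.06), Rela (both −0.16) and Tnfrsf21 (0.76 to 0.80) lie close together, while those of Tnfrsf1b (0.20 and −0.73) and Traf3ip1 (0.27 and 0.94) lie apart.

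Around these genes, lists of further pathway members were compared. The 8 measured superfamily genes under other names had a median of −0.17, with Edar, the ectodysplasin receptor, at 10.3% and 4.76% (−1.11). Fas was at 37.6% and 28.5% (−0.398) on the probe used, but its other probe went the opposite way, at 1.497. With the mean over a gene's probes the median of this list came to −0.0049. The 14 Toll receptor partners and adaptors had a median of −0.18, 9 of them lower, and 1 at least 2-fold, the lipopolysaccharide-binding protein gene Lbp (84.1% and 28.1%, −1.58). The 24 kinases and other proteins of the TNF receptor complex were split evenly, 12 lower and 12 higher, with a median of −0.01 and 0 at least 2-fold lower. In that list Ripk3, a kinase of necroptosis, had the largest difference (32.0% and 54.1%, 0.76). The 9 other negative regulators had a median of 0.04, with Cyld, a deubiquitinase, highest at 0.52, although its 3 probes ran from −0.12 to 0.52.

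Target genes of NF-kB were also compared, as a list of chemokine, adhesion, survival and acute-phase genes. Of 28 on the array, 9 were not well above background on either array. Of the 19 measured, 15 were lower, beside 45.3% of all genes, and 8 at least 2-fold lower, beside 3.36%. The median was −0.59, beside 0.03 for all genes. The complement gene C3 was at 3613% and 361% (−3.32, and −2.17 from its other probe), the chemokine gene Ccl2 at 68.5% and 10.72% (−2.68), the adhesion gene Vcam1 at 350% and 88.6% (−1.98) and the chemokine gene Cxcl10 at 493% and 132% (−1.90). The 4 higher genes were Plau (0.49), Bcl2l1 (0.34), Sod2 (0.16) and Ier3 (0.08), and Irf1 and Ccl5 were at −0.06 and −0.01. Under normexp background correction the median of the list was −0.31.

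The labelled cell type was checked against its markers, and all 12 principal cell and all 10 intercalated cell genes were well above background on both arrays. The principal cell list had a median of −0.26 (9 of 12 lower) and the intercalated list 0.73 (10 of 10 higher, Atp6v1b1 at 1.94). Gata2 had 2 probes, at −0.37 and −0.32, and where they lie relative to the deleted part is not stated, so they do not check the labels. Markers of other cells differed by list. All 20 macrophage and dendritic cell genes were well above background and lower, 3 at least 2-fold (Cd5l −3.57, Itgam −1.47 with −0.74 from its other probe, Lyz2 −1.26), with a median of −0.74 and a summed relative signal of 15330% in WT and 8118% in CKO. That stands beside −0.79, −0.72 and −0.84 for Tlr2, Tlr7 and Tnfsf13b, and −2.61 for Tnfaip8l2, but also beside −0.04, 0.12 and −0.01 for Tlr4, Tlr9 and Myd88. The part of macrophages and dendritic cells in the differences was not tested.

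Endothelial genes (11 measured, 1 not, all 11 lower) had a median of −0.36, with Vwf at −1.78 and Ptprb at −1.48, and a summed relative signal over the list of 233% in WT and 146% in CKO. Podocyte genes (6 of 6 lower) had a median of −1.14, with Wt1 at 79.1% and 24.3% (−1.70) and sums over the list of 259% and 137%. Fibroblast, pericyte and smooth muscle genes (9 of 10 lower) had a median of −0.86 and sums of 3580% and 2751%, with Cspg4 at 87.8% and 28.7% (−1.61), whose 3 probes ran from −1.61 to −0.16. Proximal tubule genes went both ways, 6 lower and 2 higher, with a median of −0.27 and sums of 791% and 637%. In that list Lrp2 was at −1.58, with its 4 probes between −1.58 and −0.26, and Aqp1 and Slc22a6 were at 0.72 and 0.46. Of 12 lymphocyte genes, 5 were not well above background on either array (Cd2, Cd3d, Il2rb, Ms4a1 and Nkg7). The 6 with a value had a median of 0.09, 2 lower and 4 higher, and sums of 221% in WT and 302% in CKO. Cd79b was highest at 0.93, and Cd8a gave a bound of −3.34 on 1 probe and −0.23 on the other. The part of these cells in the results was not tested either.

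**Figure D4:**
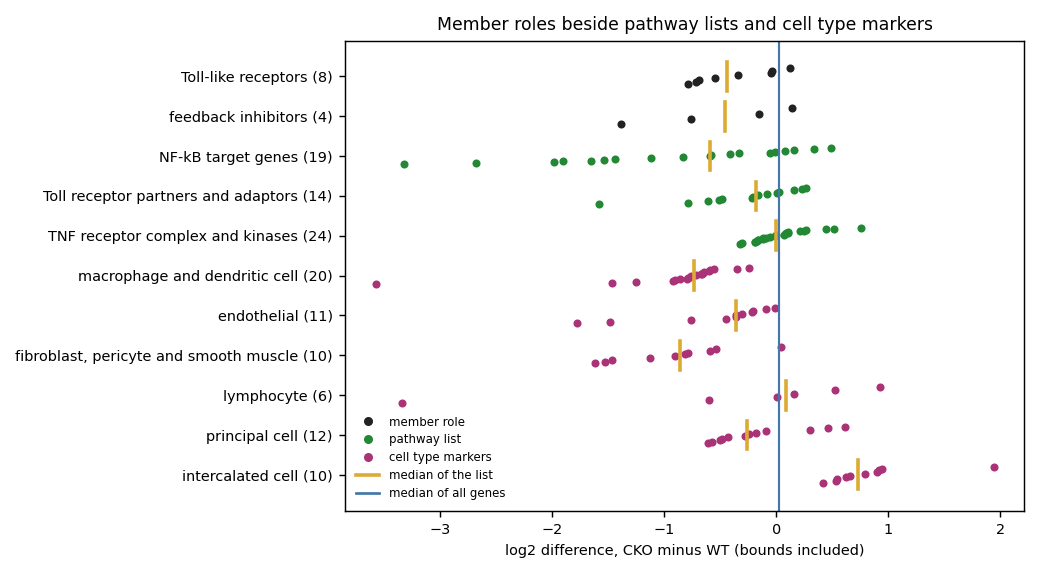
Difference (x axis, CKO minus WT, log2) of each measured gene, bounds included, of 2 member roles (black), 3 pathway lists (green) and 6 marker lists (purple), with the median of each list (yellow bar) and of all genes (blue line); numbers of genes stand beside the names. Fibroblast, pericyte and smooth muscle genes (median −0.86), macrophage and dendritic cell genes (median −0.74) and NF-kB target genes (median −0.59) lie to the left, and intercalated cell genes (median 0.73) to the right. Podocyte genes (median −1.14) and proximal tubule genes (median −0.27) are not drawn.

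The NF-kB consensus motif was searched in the 250 bases before each RefSeq start of a gene. At least 1 start had a match in 14 of the 60 members with a promoter entry (23.3%), beside 2225 of 27025 genes (8.23%). Of 32851 single promoters, 2382 had a match (7.25%). Of the members at least 1.5-fold lower, 5 of 9 with an entry had a match before any start (55.6%): Tlr2, Tnfrsf25, Tnfaip3, Nfkbie and Nfkb2. Of the other measured members 6 of 36 did (16.7%). The Birc3 and Tnfaip8l2 windows held no match. Genes with more starts have more windows, and the shares were not adjusted for that. These shares describe letters and carry no test.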

How the data were processed

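The deposited files hold, per the file headers, spot intensity on a linear scale from Agilent Feature Extraction 10.7.3.1, background-subtracted with spatial and multiplicative detrending, with probes placed on mm9. Any normalization that the authors applied across arrays is not stated. Both arrays shared 1 slide and 1 scan. Each had 45018 spots, 43379 not controls, and 64.1% (WT) and 62.4% (CKO) were well above background. The 75th percentile signals were 314 and 250.1. Flagged spots (66 and 73) were left out and 0 were saturated.

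Signals were divided by the 75th percentile of their array, spots of a probe averaged on the log2 scale, and a gene took its brightest probe well above background (at least 50% of spots) on at least 1 array. A gene so on 1 array only has a bound against the higher of the lowest such signal (12.0 WT, 11.6 CKO) and its own. By accession 26876 probes were named (GRCm38.p6), and 11053 without a name were left out. Genes were counted at 2-fold and 1.5-fold. Named are all measured members, and of each list up to 4 members at least 2-fold apart or the largest. Some list genes with little difference, or with values or probes that went the other way, are named as well. The members, lists and comparisons were chosen with earlier results of these data known. The steps were tested on simulated data. R 4.3.3, limma 3.58.1, Python 3.11.15, numpy 2.4.6 and pandas 2.3.3 were used. Alternatives were other scalings, background corrections and probe filters.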

Additional observations from a re-analysis of the deposited data

How the results depend on the processing

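No paired analysis was possible because each genotype has 1 array. Leaving out a replicate was not possible either. Counts and list medians stayed within 1.5 times, or within the probe SD of 0.27, under cyclic loess, quantile normalization, median scaling, probes well above background on both arrays, and flagged spots kept; of 56 members, 4 changed sign under loess and 2 under quantile normalization. Under normexp 11 of 53 members did, and under spike-in scaling 15 of 56. With normexp background correction (offset 50), Birc3 (−0.93) left the 2-fold calls, members at least 1.5-fold lower went from 11 to 5 (Birc3, Nfkbie, Relb, Tnfaip3, Tnfaip8l2), all genes at least 2-fold lower to 172 and higher to 54, and the medians of ligands, Toll-like receptors and NF-kB target genes to 0.051, −0.0081 and −0.31. Without a filter on dim probes, members at least 2-fold lower numbered 5 and higher 1, at least 1.5-fold higher 6, all genes 875 lower and 605 higher at 2-fold, and the ligand median was 0.24. With the mean over a gene's probes 2 members were at least 1.5-fold higher, and the receptor median was −0.16. Spike-in scaling gave 15 members at least 2-fold lower, 35 at least 1.5-fold lower and 0 higher, and 1351 and 40 genes at 2-fold; the medians were −0.52 (all genes), −0.63 (members), −0.68 (ligands), −0.54 (receptors), −0.99 (Toll-like receptors), −0.58 (adaptors), −0.38 (IKK), −0.99 (subunits), −1.005 (feedback inhibitors), −0.92 (atypical IkB), −0.63 (other TNF-induced), −0.42 (by name only), −0.72 (superfamily under other names), −0.73 (Toll partners), −0.55 (TNF receptor complex), −0.50 (other negative regulators) and −1.14 (NF-kB targets). The normexp setting also took raw spot means in place of the detrended signals. Its offset narrows raw differences of dim probes, and the causes of these shifts were otherwise not tested. Dim probes limit what can be said of Tnf, Tnfsf12, Tnfrsf22, Tlr5 and Tlr6.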
